A study of Homo sapiens with 16 samples.

Results

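The regions described here are the G4 DNA-IPdenat peaks that lie inside introns of protein-coding genes and lack the canonical quadruplex signature. They were taken from the peak list of the heat-denatured DNA by position and sequence alone: of 15709 peaks, 13851 were autosomal, 4398 of these lay in the body of a protein-coding gene, 4290 touched no exon of any gene, 4268 were over 1 kb from every protein-coding transcript start, and 3875 also held no pattern of 4 GGG or CCC triplets with loops of 1 to 7 bases. Across the study, 9 lists held 40118 peaks.

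All material came from HEK293T, an embryonic kidney cell line of human origin that carries the SV40 large T antigen. For G4 DNA-IPdenat, genomic DNA of untransduced cells was sonicated, heat-denatured and snap-chilled before incubation with 1H6, a monoclonal antibody against G-quadruplexes, and for G4 DNA-IPnat the same DNA was used without denaturation. G4-ChIP was done on formaldehyde-fixed and sonicated chromatin. The AbC G4-ChIP lists, in which 1H6 is given to lightly fixed, permeabilised cells and then fixed in place, came from cells with a non-targeting shRNA (CT) or an shRNA against CGGBP1, a protein that binds CGG repeats (KD). They formed 3 pairs, nuc, ut and tr. In ut the control DNA was added to the lysate with the antibody, and in tr it had been transfected into the cells. Each list stood for 1 library, which the authors pooled from 4 replicates, so no spread between replicates could be measured and the intervals below cover counting error only. The nuc libraries were sequenced on the Ion Torrent S5 instrument and the rest by MinION.

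G-quadruplexes are four-stranded structures in which guanines of one DNA strand pair in stacked planar tetrads. Heat separates the strands of a duplex, and on rapid cooling each strand can fold on itself before it finds its partner. Introns carry most of the transposon copies of genes: LINE-1, a retrotransposon whose first reading frame (ORF1) encodes a nucleic acid chaperone and whose second (ORF2) encodes an endonuclease and reverse transcriptase, and Alu, a short element copied by the LINE-1 machinery that ends in a run of adenines.

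Sequences of hg38 are given first for intronic peaks with the highest fold or the most overlaps with other lists, to show the kinds of repeat found outside the transposons. Each is the stretch of 200 bases with most GGG and CCC triplets in its peak. Capitals mark runs of 3 or more guanines or cytosines, and all are on the plus strand of hg38.

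DUX4 intron, chr4:190177271-190177470, plus strand: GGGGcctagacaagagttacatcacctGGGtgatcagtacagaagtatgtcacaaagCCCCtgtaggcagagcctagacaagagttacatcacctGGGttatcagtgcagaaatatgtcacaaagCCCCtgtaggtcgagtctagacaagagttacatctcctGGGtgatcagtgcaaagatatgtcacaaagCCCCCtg

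PTPRN2 intron, chr7:158148005-158148204, plus strand: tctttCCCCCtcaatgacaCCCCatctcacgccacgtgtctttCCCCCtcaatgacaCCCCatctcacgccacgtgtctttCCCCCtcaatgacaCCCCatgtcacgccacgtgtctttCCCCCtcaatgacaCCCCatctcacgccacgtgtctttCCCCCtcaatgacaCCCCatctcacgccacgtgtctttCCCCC

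MPPED1 intron, chr22:43432534-43432733, plus strand: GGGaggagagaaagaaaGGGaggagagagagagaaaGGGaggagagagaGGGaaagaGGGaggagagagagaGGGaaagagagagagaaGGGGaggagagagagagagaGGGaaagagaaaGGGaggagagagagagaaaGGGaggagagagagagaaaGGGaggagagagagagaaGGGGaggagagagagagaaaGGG

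The windows of DUX4 and PTPRN2 are tandem repeats, and that of MPPED1 is a run of adenines and guanines. The PTPRN2 window held 28 CCC triplets and 0 GGG triplets. None of the windows holds the signature, since the selection barred it. The DUX4 window held 5 GGG and 7 CCC triplets, and the MPPED1 window 15 and 0. The last sequence is from an intronic peak of fold 10.5 in CYP4F3, a fatty acid hydroxylase gene, and shows in capitals an unbroken stretch of pyrimidines 118 bases long. The lower-case bases after it read as the 3′ end of an Alu on its complementary strand, so the stretch is a purine run on the strand of the Alu.

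CYP4F3 intron, chr19:15650761-15650910, plus strand: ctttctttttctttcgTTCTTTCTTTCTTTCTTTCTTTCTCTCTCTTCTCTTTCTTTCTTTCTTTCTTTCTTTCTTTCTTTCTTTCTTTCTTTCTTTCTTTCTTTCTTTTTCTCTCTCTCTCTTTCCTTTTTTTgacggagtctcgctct

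The intronic peaks were sorted into classes by sequence. LINE-1 was the class of most of them: 2816 peaks, or 72.7% (95% interval 71.2% to 74.1%), had at least 50% of their bases aligned to the reference LINE-1 copy, a genomic copy on chromosome 10 with both reading frames open, and 2488 (64.2%) had at least 90%. The comparison was a census of intron sequence: all introns that met the same rules of position were cut into consecutive windows of 1690 bp, the median length of the peaks, and the 483775 windows without the signature were kept, those under a peak included. LINE-1 here and below means sequence aligned to that copy, so LINE-1 too diverged to align was not counted. By this measure LINE-1 made up at least 50% of the bases in 5.06% of these windows. The share of LINE-1 in the 9976 other autosomal peaks of the same list was 60.9%, and it was 74.3% in the 393 peaks left out of the set only for the signature. In the other 8 lists it ran from 1.18% of the autosomal peaks of CTnuc to 5.12% of those of G4-ChIP.

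Nearly all of the remaining 1059 intronic peaks held an Alu. At least 100 bases of Alu were present in 985 of them (93.0%, 95% interval 91.3% to 94.5%), against 31.8% of 1115355 signature-free intron windows of 803 bp that were not LINE-1. A run of 50 or more bases of purines on one strand put 169 peaks in a class of their own (4.36% of the intronic peaks). Among the peaks that were not LINE-1 this class made up 16.0%, against 0.702% of the windows. It was 16.3% of the other autosomal peaks of the list that were not LINE-1, so it was not particular to introns. Tandem repeats, in which at least 30% of the 12-base words occurred 3 or more times, made up 46 peaks, and 832 peaks with at least 100 bases of Alu and none of these features formed the Alu class. The Alu class was 21.5% of all intronic peaks, against 29.7% of all signature-free windows of 803 bp, LINE-1 included. Of the LINE-1 peaks 13.1% held at least 100 bases of Alu. None of the class limits was met by 12 peaks, or 1.13% of those outside LINE-1, against 67.5% of the windows. Of the other autosomal peaks outside LINE-1, 24.5% were tandem repeats, 26.3% were Alu and 32.8% met none of the limits. The shares in the intronic peaks outside LINE-1 were 4.34%, 78.6% and 1.13%. The classes and their limits were chosen after the sequences had been seen.

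The makeup of the intronic peaks changed with enrichment. LINE-1 made up 87.6% of the 1800 peaks with a fold under 4.5, 46.6% of the 790 peaks with a fold of 5 to 6, and 28.8% (95% interval 17.1% to 43.1%) of the 52 peaks with a fold of 8 or more. Alu rose from 11.1% of the lowest group to 44.5% of the 283 peaks with a fold of 6 to 8, and was 17.3% (95% interval 8.23% to 30.3%) in the highest group. Purine runs rose from 1.00% to 28.8% and tandem repeats from 0.222% to 23.1% between the lowest and the highest group. The median fold was 4.43 for LINE-1, 5.15 for Alu, 5.87 for purine runs and 6.05 for tandem repeats. In the same order the median lengths of the peaks were 2058.5, 854.5, 716 and 864 bp. The part of peak length in the folds was not tested. Among the 766 peaks whose q-value reached 4 on the -log10 scale, LINE-1 fell to 34.6%, Alu rose to 45.04% and purine runs to 15.8%.

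The base content of the intronic peaks lay in a narrow range. Their median GC content was 38.6%, with quartiles of 37.7% and 39.6%, against a median of 39.5% and quartiles of 36.04% and 43.6% in the intron windows. A GC content of 37 to 40% was found in 66.2% of the peaks and 22.6% of the windows. Above 45% lay 3.23% of the peaks and 18.4% of the windows, and below 34% lay 1.42% and 13.3%. The LINE-1 peaks had a median GC content of 38.4%, close to the 38.9% of ORF2 in the reference copy, and read in the direction of the element their bases were 41.5% adenine, 21.0% cytosine, 17.5% guanine and 20.04% thymine. Intron windows of at least 90% LINE-1 had a median GC content of 38.2% (quartiles 36.7% and 39.2%). Peaks of at least 90% LINE-1 had 38.4% (quartiles 37.7% and 39.0%). The Alu peaks had a median GC content of 39.7%, below the 43.2% of the intron windows of 803 bp in the Alu class.

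**Figure D1:**
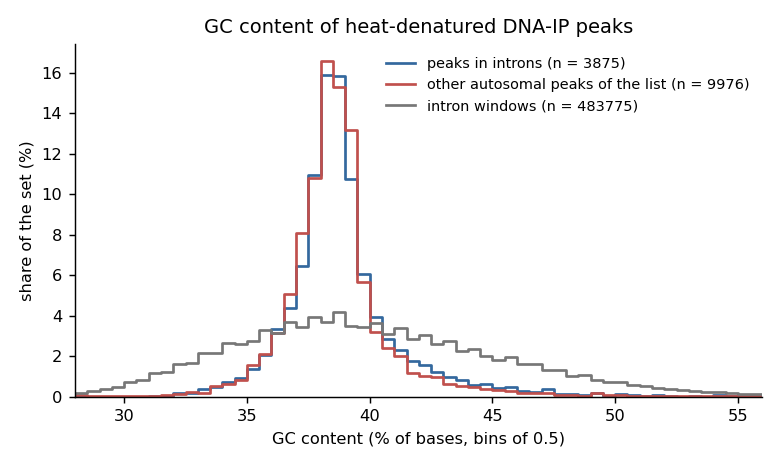
Share of each set (y axis, percent) by GC content in bins of 0.5 (x axis, percent of bases) for the intronic peaks, the other autosomal peaks of G4 DNA-IPdenat and the intron windows without the signature. The lines of both sets of peaks stand together with 66.2% and 69.8% of the peaks between 37 and 40%, while the windows spread over the whole range with 22.6% there.

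Guanine triplets were not more frequent in the intronic peaks than in introns at large. The peaks held a median of 18.1 GGG or CCC triplets per kb (quartiles 16.1 and 19.9), and the windows 21.3 (quartiles 16.0 and 28.4). The pattern of 4 triplets with loops of up to 12 bases, which the selection did not bar, was present in 2.58% of the peaks (95% interval 2.10% to 3.13%) and in 11.3% of the windows. Runs of only 2 guanines in the same arrangement were present in 88.6% and 92.1%. Among the intron windows before the signature was considered, 13.7% held it, and among the 4268 peaks that met the rules of position 9.21% did (95% interval 8.36% to 10.1%), although the lengths of the peaks differ from that of the windows. Of the triplets in the peaks, 51.1% were GGG on the sense strand of the gene, and of those in the windows 51.3% were.

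The share of LINE-1 copies with an intronic peak differed by the length of the copy and by its identity to the reference. The introns held 16659 alignments of at least 1000 bases to the reference copy, which is 6053 bases long. That copy was picked because its 31-base words were the most shared by the peaks, so identity to it was not independent of the peaks. A peak overlapped 5.40% of the copies of 1000 to 2000 bases, 29.7% of those of 3000 to 4500 bases and 63.9% (95% interval 61.7% to 66.1%) of the 1921 copies of 4500 to 5500 bases. Of all 2446 copies of at least 4500 bases, 1530 (62.6%) held an intronic peak, and 4.58% held one that reached a -log10 q of 4. Among these long copies the share was 8.06% below 80% identity to the reference and 24.8% from 80 to 85%. It was 73.2% from 90 to 92%, 75.8% from 92 to 94% and 74.8% from 94 to 96%. It was lower again in the most similar copies, at 61.2% from 96 to 98% and 48.3% (95% interval 40.1% to 56.6%) in the 149 copies above 98%. The authors kept uniquely aligned reads only, and the part of that filter in the lower share among near-identical copies was not tested.

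Within the long copies the peaks centred on ORF2. At the centre of the profile, 3025 bases into the element and 1040 bases into ORF2, 51.1% of the 2446 copies were covered by an intronic peak. On average the peaks covered 35.4% of the copies along ORF2, 19.7% along ORF1, 2.18% along the 5′ region and 1.56% along the 3′ region. These are shares of the copies that reach each position, which were 515 at base 25 and 585 at base 775 of the element. The 3′ region of the reference copy, with 70.8 triplets per kb, holds the canonical signature on its G-rich strand, and the 5′ region has a GC content of 57.2% and 57.5 triplets per kb, against 18.8 triplets per kb in ORF2. Since the selection barred peaks with the signature, the profile was repeated with every autosomal peak of the list. The means were then 39.3% along ORF2, 2.46% along the 5′ region and 5.82% along the 3′ region, and the highest value, 55.03%, was again 3025 bases into the element.

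Long LINE-1 copies in introns mostly run against the direction of the gene, and the intronic peaks followed this. The element lay in the direction of the gene in 33.2% of 2418 long copies and in 28.8% (95% interval 27.1% to 30.5%) of 2781 LINE-1 peaks whose gene has 1 direction. A peak was present in 58.1% (95% interval 54.6% to 61.5%) of the long copies that ran with the gene and in 64.9% (95% interval 62.5% to 67.2%) of those that ran against it. Any autosomal G4 DNA-IPdenat peak was present in 67.1% of the long intronic copies and in 61.0% of the 3546 long copies outside all genes.

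Around Alu copies the intronic peaks lay to one side. Of 304449 nearly full-length Alu copies with 600 bases of eligible intron on each side, 1623 (0.533%) overlapped a peak that was not LINE-1. The base 50 positions past the 3′ end of the Alu was inside the peak for 85.5% (95% interval 83.6% to 87.1%) of these copies, and the base 50 positions before the 5′ end for 57.1% (95% interval 54.7% to 59.5%). The 3′ side alone was covered for 696 copies and the 5′ side alone for 236. A peak was found on 0.209% of the copies of 70 to 80% identity to the Alu used for the search. The share was 0.776% from 90 to 95% and 0.695% (95% interval 0.481% to 0.969%) from 95 to 100%. That Alu was picked for the sequence it shared with peaks without LINE-1, so identity to it was not independent of the peaks. The purine runs met the same end: in 97 of the 169 peaks of that class (57.4%) the run lay within 30 bases of the 3′ end of an Alu, and in all 97 the run was purine on the strand of the Alu, as its adenine tail is. These runs had a median length of 145 bases in the class as a whole, with a median guanine content of 32.1%. Nearness to an Alu was not counted for purine runs in the intron windows or in other peaks. It is thus not shown to be particular to the intronic peaks.

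The intronic peaks were spread over 2294 of the 17534 protein-coding genes with eligible intron sequence (13.1%), at 3.54 peaks per Mb of that sequence. Of these genes 817 held 2 or more and 111 held 5 or more. Those 111 genes held 781 peaks, or 20.2% of all. The median distance was 37.9 kb to the nearest protein-coding start and 5.48 kb to the nearest exon, both of which the selection kept apart from the peaks. First introns of the canonical transcripts held 15.7% of the peaks (95% interval 14.6% to 16.9%) and 21.1% of the sequence.

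The genes with most intronic peaks per kb, among those with at least 5, were 85163 to 503031 bp long, and LINE-1 made up 6.47% to 53.2% of their introns. SLC22A25, an organic anion transporter gene on chromosome 11 (63158437 to 63243599), came first with 5 peaks in 74.1 kb of eligible intron, or 67.5 per Mb. Over all eligible intron sequence the share of LINE-1, counted only where it aligned to the reference copy, was 5.18%. NRG4, which encodes an epidermal growth factor-like ligand, held 6 peaks or 54.1 per Mb, and AGBL3, a carboxypeptidase gene that acts on glutamate chains of tubulin, held 6 or 40.3 per Mb. DNAH14, an axonemal dynein heavy chain gene on chromosome 1 (224896262 to 225399292), stood out by having 18 peaks at 38.3 per Mb, 13 of them LINE-1, with folds from 4.14 to 7.99. The meiotic genes HFM1, a helicase, and MEI4, a factor of double-strand break formation, were among the 15 with 37.2 and 26.2 peaks per Mb, and so was CATSPERE, a subunit gene of the sperm calcium channel, with 33.3.

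The rest of the 15 genes lay between 26.7 and 39.4 peaks per Mb. ENSG00000287856 and ENSG00000276490, genes without a symbol, held 6 peaks each. WDR41 (a partner of C9orf72), ALMS1 (a centrosomal protein gene) and SMAP1 (an Arf GTPase-activating protein gene) held 6, 6 and 5, of which 5 in each were LINE-1. All 3 long LINE-1 copies in the introns of each of these genes held a peak. LMBR1, whose intron carries the limb enhancer of Sonic hedgehog, differed from them, with 7 peaks of which 5 were not LINE-1 and with 0 long copies. LRRIQ3 held 5 peaks and SLC30A10, a manganese exporter gene, held 7.

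By number the order was different. CTNNA3, the alpha-T-catenin gene on chromosome 10 (65912457 to 67763637), held 20 intronic peaks, 19 of them LINE-1, at 11.0 per Mb, with folds from 4.02 to 6.32. A peak was present on 10 of its 12 long LINE-1 copies. DOCK3, a guanine nucleotide exchange factor gene, held 17 peaks with one on each of its 8 long copies. RABGAP1L held 15, TTC28 14, ULK4, a pseudokinase gene, 12, and EYS, a photoreceptor gene, 12. GPC5, a glypican gene, held 11, and STXBP5L and SCAPER held 10 each. STXBP5L had 33.8% LINE-1 in its introns, all 10 of its peaks were LINE-1, and 8 of its 10 long copies held one. Across the 10 genes 1 to 8 peaks reached a -log10 q of 4, other than in EYS and STXBP5L, which had 0.

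Longer genes more often held an intronic peak, but above 100 kb the rate per Mb did not rise steadily with length. Genes with a peak had a median length of 146 kb and those without 26.4 kb. A peak was present in 1.51% of the genes of 10 to 30 kb, 36.3% of those of 100 to 300 kb and 88.1% (95% interval 77.8% to 94.7%) of the 67 genes over 1000 kb. Per Mb the rates were 1.34 in genes of 10 to 30 kb, 3.15 from 30 to 100 kb, 3.94 from 100 to 300 kb, 4.06 from 300 to 1000 kb and 2.61 above. Genes above the median length of 32.4 kb had 2.76 times (95% interval 2.26 to 3.35) the rate of shorter ones, whereas genes over 300 kb had 1.03 times (95% interval 0.968 to 1.10) the rate of genes of 30 to 300 kb. The share of LINE-1 in the introns was 1.69% in genes of 10 to 30 kb, 6.74% in those of 300 to 1000 kb and 6.64% above 1000 kb, where the peak rate was lower. By the GC content of the gene, the rate was highest at 36 to 38% with 5.17 per Mb and lowest above 50% with 1.00.

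Groups of long genes often held an intronic peak, with 13.1% of all genes holding one, but not at a high rate. Of 19 genes at common fragile sites, long genes that break under replication stress, 15 held an intronic peak, at 2.93 peaks per Mb. FHIT, a tumour suppressor gene, held 9, DLG2, a synaptic scaffold gene, 8 and DAB1, an adaptor gene of reelin signalling, 7. Synaptic adhesion and axon guidance genes held peaks in 21 of 33, with 7 in CNTNAP2, 6 in CADM2 and 5 each in LRRTM4 and CNTN5. The numbers were 11 of 24 for glutamate receptors, 11 of 27 for voltage-gated channels and 7 of 28 for cadherins and protocadherins. Among the channels KCNH8 and KCNH1, potassium channel genes, held 5 peaks each at 13.2 and 11.4 per Mb, and PCDH9 held 4, all LINE-1 and all overlapping another list. All 5 groups had fewer intronic peaks per Mb than the 3.54 of all genes, from 1.44 for cadherins and protocadherins to 2.93. Of 18 quadruplex helicases and binding proteins, BLM and BRIP1, both helicase genes, held 1 peak each. That share of 11.1% was near the 13.1% of all genes. None of 30 ribosomal protein genes did, in 0.137 Mb of eligible intron.

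Chromosome 1 held more intronic peaks than its introns would at the common rate. It had 572 peaks at 5.81 per Mb, while the other autosomes ran from 1.47 on chromosome 16 to 4.28 on chromosome 3 and had 3.32 together. Its long LINE-1 copies were not denser, at 2.09 per Mb against 3.64 on chromosome 4, where 43.0% of the long copies held a peak. On chromosome 1 74.8% did, and on the other autosomes together 61.4%, with higher shares on chromosomes 6 (76.3%), 19 (76.9%) and 22 (92.3%). Peaks that were not LINE-1 were at 2.05 per Mb on chromosome 1 and 0.860 on the others together, with 2.31 on chromosome 22. The highest rate among stretches of 10 Mb with at least 2 Mb of eligible intron was 14.4 per Mb, on chromosome 1 from 220 to 230 Mb, where DNAH14 lies. The number of copies of chromosome 1 in these cells and in the input was not tested.

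Only 62 of the 3875 intronic peaks (1.60%, 95% interval 1.23% to 2.05%) overlapped any of the other 8 lists, against 19.99% of the other autosomal peaks of the same list and 0.581% of the intron windows. G4 DNA-IPnat, the same DNA without denaturation, overlapped 2 intronic peaks (0.0516%) and 1.41% of all 13851 autosomal peaks of the list. G4-ChIP overlapped 15 (0.387%), with 2.31% over all autosomal peaks. CTnuc overlapped 6 (0.155%) and KDnuc 12 (0.310%), with 6.17% and 8.24% over all. CTut overlapped 31 (0.800%) and KDut 29 (0.748%), with 11.2% and 7.73% over all. CTtr overlapped 31 (0.800%) and KDtr 26 (0.671%), with 7.53% and 6.49% over all. For each of the 8 lists the share of intronic peaks was thus below that of the list as a whole. It was above the share of intron windows for all 8, from 0.310% against 0.254% for KDnuc to 0.0516% against 0.00124% for G4 DNA-IPnat. The intervals of KDnuc (0.160% to 0.540%) and CTnuc (0.0568% to 0.337%) hold the windows' shares of 0.254% and 0.0686%.

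Between KD and CT the share of intronic peaks overlapped did not move one way. KD minus CT was 0.155 percentage points in the nuc pair, -0.0516 in the ut pair and -0.129 in the tr pair, with a mean of -0.00860 ± 0.147 (SD, n = 3 pairs). An exact two-sided sign-flip permutation test over the pairs gave p = 1.0, and 3 pairs cannot go below 0.25. Over all autosomal G4 DNA-IPdenat peaks the differences had the same signs: CT and KD overlapped 6.17% and 8.24% in nuc, 11.2% and 7.73% in ut, and 7.53% and 6.49% in tr. The CT and KD lists held 3737 and 7388 autosomal peaks in nuc, 3380 and 2896 in ut, and 2344 and 2359 in tr. The part of list size in these shares was not tested.

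The overlapping peaks had a median fold of 5.34, against 4.54 for the 3813 peaks that overlapped none. LINE-1 peaks made up 36 of the 62, or 1.28% of their class. The share within a class was highest for tandem repeats, of which 13 of 46 (28.3%, 95% interval 16.0% to 43.5%) overlapped another list, against 1.32% of Alu and 0.592% of purine-run peaks. Chromosome 1 held 14 of the 62, chromosome 13 held 9, and chromosomes 4 and 18 held 5 each. Counted from the other lists, the peaks that met an intronic peak made up 0.897% of the 223 autosomal peaks of G4 DNA-IPnat, 1.05% of G4-ChIP, and between 0.161% of CTnuc and 1.32% of CTtr among the AbC G4-ChIP lists.

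A single intronic peak overlapped all 8 other lists. It lay in DUX4 (chr4:190176630-190178549), which encodes a transcription factor of the early embryo, and it also had the highest fold, 18.5. DUX4 has near-identical copies elsewhere in the genome, so the placement of reads there is uncertain. The peak shared 846 bases with G4 DNA-IPnat and 1920, its whole length, with KDnuc. The sequence was a tandem repeat of 48.0% GC, in which a shift of 137 bases gave the best match to itself, at 54.3% identity. Another peak in DUX4 (chr4:190180835-190181826) had a fold of 8.25 and overlapped 6 lists, all AbC G4-ChIP. The PTPRN2 peak (chr7:158146941-158148975; PTPRN2 is a phosphatase-like protein of secretory granules) had a fold of 10.0, overlapped 6 lists including G4 DNA-IPnat, and repeated every 114 bases with 95.8% identity and 127 triplets per kb. The peak of PCDH9 (chr13:66421117-66424224), a protocadherin gene, and that of RYR2 (chr1:237075967-237078116), a calcium release channel gene, overlapped 6 and 5 lists and were LINE-1 over their whole length.

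Other peaks of high fold had fewer overlaps. The ARHGAP24 peak (chr4:85892661-85893740) had a fold of 17.3, was LINE-1 throughout and overlapped KDut and CTtr. The TSNARE1 peak on chromosome 8 had a fold of 13.3 and overlapped 4 lists, and its sequence was a tandem repeat of 18 bases with 0.901 triplets per kb, so that guanine triplets were nearly absent. TTL, a tubulin tyrosine ligase gene, had a peak of fold 13.3 that overlapped CTut, KDut and CTtr. The MPPED1 peak (chr22:43432238-43433043) had a fold of 12.5 and overlapped none. Its purine run of 440 bases was the longest among the intronic peaks.

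The longest intronic peak, 18613 bp in NSUN6, an RNA methyltransferase gene, was a tandem repeat with a fold of 6.11. The next were LINE-1 peaks of 8814 bp in CTNNA3 and 8803 bp in DNAH14, an Alu peak of 8016 bp in IL12RB2 and a LINE-1 peak of 7459 bp in C11orf65. Among the peaks nearest to the limit on distance to a start, 1 lay 1005 bp from it in C2orf88 and 1 lay 1127 bp from it in SLC36A1, with folds of 6.15 and 5.95. Among those just left out were peaks at 923 bp in ADGRV1 and 894 bp in PPP4R4, with folds of 4.45 and 4.97, both LINE-1 throughout. Over all intronic peaks the fold ran from 3.90 to 18.5 with a median of 4.55 (quartiles 4.23 and 5.12), and the length from 555 to 18613 bp with a median of 1690 bp. The other autosomal peaks of the list had a median fold of 4.72.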

How the data were processed

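Peaks of 9 immunoprecipitations from HEK293T cells were analysed on hg38. The authors aligned reads with minimap2, kept unique alignments and called broad peaks with MACS2 against the input. G4 DNA-IPdenat peaks were called without a local background, at a broad cutoff of 0.01 and with the bandwidth set to 3000. The fold enrichment deposited by the authors is a linear ratio to background, which for G4 DNA-IPdenat was not taken from the input around each peak. The p-value and q-value columns deposited by the authors are on the -log10 scale. The score deposited by the authors is a whole number made from the q-value and was not used. The lists give no read depth.

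The intronic peaks, gene lists and classes were chosen with earlier results of these data known. GENCODE version 44 gave genes, exons and starts. Intron windows are consecutive, of 1690 bp or, for peaks outside LINE-1, 803 bp. The LINE-1 reference (chromosome 10, 98782918 to 98788970, minus strand, 6053 bases) carries the 31-base word most shared by the peaks (in 902 of them) and both reading frames open. Among such copies it was picked because its 31-base words were on average the most shared by the peaks. The Alu was a 280-base copy from hg38, picked for the 25-base words most shared by the peaks without LINE-1. Both were aligned to the autosomes with blastn 2.17.0 (word size 13, e-value 1e-20).

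Shares have exact Clopper-Pearson 95% intervals and medians order-statistic intervals, both for counting error only. The 3 KD and CT pairs, which the labels name, were compared by an exact sign-flip permutation test. Named genes were the 15 with most peaks per kb among those with at least 5, the 10 with most peaks, and up to 4 per gene list. Named regions were the 5 of highest fold, of most overlaps and of greatest length, and those at the limit on distance to a start. Some named regions and sequences are not reported here. Alternatives covered the limits on exons, starts, loops, q-value, overlap and gene size, left-out chromosomes and class limits. No column of per-sample values was left out. Overlap, signature and class functions were tested on simulated data. Scripts ran in Python 3.11.15 with scipy 1.17.1, numpy 2.4.6, pysam 0.24.0 for sequence, pandas 2.3.3 for tables, and matplotlib 3.10.9 for plots.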

Additional observations from a re-analysis of the deposited data

How the results depend on the processing

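Of 60 alternatives to 21 results, 28 left the value in place and 32 moved it. In place meant within its interval, within 1.5 times the count or, for KD minus CT, within the SD of its mean. Restriction to peaks that reached a -log10 q of 4 moved most: 766 peaks remained, the share of LINE-1 fell to 34.6%, purine runs rose to 15.8% and Alu to 45.04%, 4.58% of long LINE-1 copies and 3.98% of genes held a peak, the rate was 0.700 per Mb, and the median GC content was 39.2%. The overlaps were then 0.261% with G4 DNA-IPnat, 0.783% with G4-ChIP, 0.522% with CTnuc, 0.783% with KDnuc, 2.61% with CTut, 2.48% with KDut, 2.87% with CTtr and 2.61% with KDtr. When 70% or more of the peak had to be covered they were 0.0% with G4 DNA-IPnat, 0.0774% each with G4-ChIP, CTnuc and KDnuc, 0.439% with CTut, 0.490% with KDut, 0.542% with CTtr and 0.413% with KDtr. Over the central 1000 bp the median GC content was 38.4% and the triplets were 18.0 per kb. Among genes with at least 10 kb of eligible intron 18.9% held a peak, and genes over 300 kb had 1.03 times the rate of genes of 30 to 300 kb.

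The next alternatives were chosen after the data were seen. A LINE-1 content of at least 90% was met by 64.2% of the peaks, 57.5% of the copies of at least 5500 bases held a peak, runs of at least 30 bases gave 8.03% purine runs and 17.9% Alu, and without chromosome 1 the rate was 3.32 per Mb.

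For KD minus CT the pairing of the lists served as the replicate block. Its mean was -0.00860 percentage points with and without the pairing, both with p = 1.0 in exact permutation tests. Without 1 pair in turn the mean ran from -0.0903 to 0.0516, so its sign rested on single pairs.

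Each list was 1 pooled library, so differences between lists could not be set against replicate spread. The depth of the libraries is unknown from the lists, and the read counts that the authors reported for some libraries were not used. Only 19.8% of the intronic peaks reached a -log10 q of 4, and a missing overlap says only that no peak was called in the other list. Peak callers were set with different bandwidths between lists, and the part of this in the overlaps was not tested.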
